A study of Sus scrofa with 9 samples.

Results

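The 6 mucin genes described here are MUC19 and MUC2, which encode secreted gel-forming mucins, and MUC1, MUC4, MUC13 and MUC20, which encode mucins anchored in the cell membrane. They were chosen by symbol, as the probe sets of a pig array whose only annotated gene symbol was one of these names. Each symbol had exactly 1 such probe set, so the members are 6 of 12217 genes measured by a probe set with a single symbol. The array has 27558 probe sets, 13157 of them with 1 symbol.

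Mucins are large glycoproteins whose repeat-rich stretches are densely covered with O-linked sugars. Gel-forming mucins are packed into granules, released, and swell into the mucus layer. Membrane mucins stay on the apical surface, where their extracellular part forms a barrier and their short cytoplasmic tail, or their growth factor-like domains, can take part in signalling. Esophageal submucosal glands secrete mucus and bicarbonate-rich fluid onto a stratified squamous lining that itself makes no mucus gel.

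RNA was measured in 9 pig samples, 1 sample per array and 3 arrays per group. ESMG samples were esophageal submucosal glands of pigs 37, 39 and 40, and squamous samples were the lining above the glands in the same 3 pigs; the labels describe these animals as controls. Spheroids were grown in vitro from ESMG in growth factor-reduced Matrigel, under Advanced DMEM/F12 with B27, N2, 10 mM HEPES and 50 ng/ml of recombinant human EGF, and came from animals labelled pig 1, 2 and 3. The labels give no strain or age, and do not relate the spheroid animals to pigs 37, 39 and 40. Tissue and spheroid RNA were also isolated with different kits, so culture, medium, kit and animal cannot be told apart in a comparison of spheroids with tissue.

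Values are log2 RMA levels as deposited, so a difference of 1 is a fold of 2. The lower quartile of all probe sets lay between 5.36 and 5.65 on the 9 arrays, and a level at or under it is near the floor of the method. No detection call was used, so such a level is not read as absence. A probe set was called in limma at a Benjamini-Hochberg adjusted p under 0.05, over all 13157, and at least a 2-fold difference. Intervals are 95% intervals of the log2 difference from the same fit, and the precision is limited by the number of arrays.

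The labels were set beside marker lists. These lists were chosen with earlier results of these data known, so they are no independent check of the labels. Of 13 measured gland epithelium markers, 11 were called higher in ESMG than in squamous tissue, against 2.65% of all genes. The squamous epithelium markers were nearly as bright in ESMG as in the lining: the log2 of the summed level of 6 of them was 14.36 to 14.89 in ESMG and 15.01 to 15.11 in squamous tissue. The ESMG array of pig 40 had the lowest gland marker sum of its group, 14.34 against 15.08 for the highest, pig 37. The squamous array of pig 37 had the highest of its group, 12.92 against 11.90 and 11.73 for pigs 39 and 40. Results for these arrays are given with and without them where they moved a value by over 1.5 times or changed a call.

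The gel-forming MUC19 was higher in glands than in both other groups, and MUC1, MUC4, MUC13 and MUC20 were higher in spheroids than in both tissues. In ESMG versus squamous tissue 1 of 6 mucins was called, MUC19, which was higher in ESMG; of named probe sets 3.09% were called in either direction, 2.68% higher and 0.403% lower. Between spheroids and ESMG 5 of 6 were called, against 16.9% of named probe sets: MUC1, MUC4, MUC13 and MUC20 were higher (8.12% of named probe sets were) and MUC19 was lower (8.82% were). Between spheroids and squamous tissue the 4 membrane mucins were called, all higher in spheroids, against 16.7% of named probe sets in either direction, 8.7% higher and 7.99% lower. MUC2 was not called in any comparison. The comparisons of spheroids with ESMG and with squamous tissue share the spheroid arrays, and each tissue enters 2 comparisons, so the calls are not independent of each other.

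**Figure D1:**
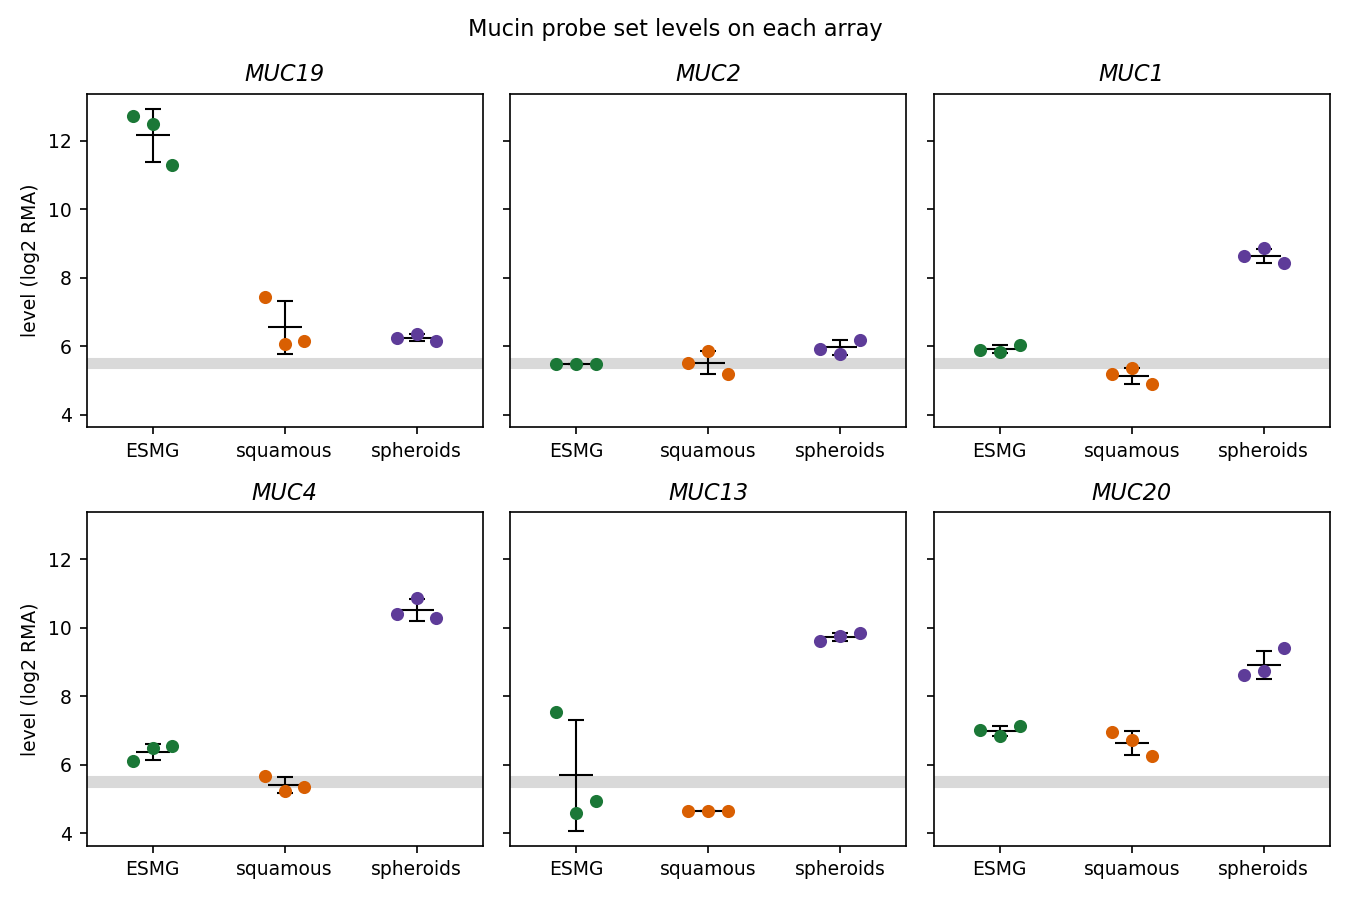
Level of each mucin probe set on each array (y axis, log2 RMA) in ESMG, squamous tissue and spheroids (x axis); points are arrays, in the order pig 37, 39, 40 for tissues and 1, 2, 3 for spheroids, black bars are the mean and SD of 3 arrays, and the grey band spans the lower quartiles of the 9 arrays. MUC19 lies between 11.29 and 12.73 in ESMG and at or under 7.45 elsewhere, MUC2 stays near the band, and MUC1, MUC4, MUC13 and MUC20 are highest on the 3 spheroid arrays.

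MUC19 is the gel-forming mucin known from salivary and submucosal glands. Its level was 12.73, 12.49 and 11.29 in the ESMG of pigs 37, 39 and 40. In the squamous tissue of the same pigs it was 7.45, 6.06 and 6.15, and in spheroids 1, 2 and 3 it was 6.24, 6.36 and 6.17. Every ESMG array was above every other array, and the gland array with the lowest MUC19 was the one with the lowest gland marker sum. Likewise the squamous array with the highest MUC19 was the one with the highest gland marker sum; whether gland cells in that sample gave its MUC19 was not tested.

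MUC19 was 49.2-fold higher in ESMG than in squamous tissue, at 12.17 ± 0.77 against 6.55 ± 0.78 (SD, n = 3 each; log2 difference 5.62, SE 0.39, interval 4.76 to 6.48, limma adjusted p = 1.31e-05). Without the ESMG array of pig 40 and the squamous array of pig 37 together, the log2 difference was 6.51, a setting chosen after seeing the data. In spheroids MUC19 was 60.4-fold lower than in ESMG, at 6.26 ± 0.10 (SD, n = 3; log2 difference -5.92, SE 0.39, interval -6.78 to -5.06, limma adjusted p = 6.65e-07). Spheroids and squamous tissue overlapped: the log2 difference was -0.30 (interval -1.16 to 0.57, adjusted p = 0.607), and it was 0.15 when the squamous array of pig 37 was left out. With array weights it was -0.87 (adjusted p = 0.0108), under the 2-fold minimum. The weights were 8.48 for spheroid array 1 and 3.04 for the squamous array of pig 37, against 0.37 to 1.19 for the other arrays.

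In these bulk samples fewer cells of a type and less RNA per cell cannot be told apart. Keratins of simple and glandular epithelium were measured beside MUC19. KRT8 was at 11.60, 11.25 and 10.76 in ESMG and at 11.44, 11.21 and 11.74 in spheroids (log2 difference 0.26, SE 0.25, limma adjusted p = 0.454). For KRT18 the difference was 0.24 (SE 0.25) and not called, and it was -0.098 with array weights and -0.074 without the ESMG array of pig 40. KRT19, another such keratin, rose by 1.87 (SE 0.23, adjusted p = 6.49e-05). Of the 13 gland epithelium markers, 7 were lower in spheroids than in ESMG, against 8.91% of all genes. The 1 higher was KRT19, near the share of all genes, 7.99%. The largest falls were 7.59 for the salivary lipocalin PHEROC (adjusted p = 1.16e-05) and 5.66 for LPO, a secreted peroxidase (adjusted p = 2.00e-08). PHEROC was under the lower quartile on all 3 spheroid arrays, so the size of its fall is taken against levels near the floor.

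MUC2 is the main gel-forming mucin of intestinal goblet cells. It was at 5.49, 5.50 and 5.49 in ESMG, at 5.51, 5.87 and 5.19 in squamous tissue and at 5.93, 5.78 and 6.20 in spheroids. All 3 ESMG arrays and 2 of the 3 squamous arrays were under their array's lower quartile, and no spheroid array was. The spheroids were above every ESMG array by a small amount (log2 difference 0.48, SE 0.18, interval 0.08 to 0.87, limma adjusted p = 0.0518) and overlapped squamous tissue (0.45, interval 0.06 to 0.84, adjusted p = 0.0663). Between ESMG and squamous tissue the difference was -0.03 (interval -0.42 to 0.36, adjusted p = 0.957). The intervals hold no 2-fold difference of MUC2 in any comparison, on a scale that RMA compresses near the floor.

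MUC1 is a widely expressed epithelial membrane mucin with a signalling tail. It was at 5.90, 5.84 and 6.05 in ESMG, 5.18, 5.36 and 4.89 in squamous tissue, and 8.65, 8.86 and 8.45 in spheroids. The 3 groups did not overlap, in the order squamous, ESMG, spheroids, and every squamous array was under its lower quartile. MUC1 rose 6.59-fold from ESMG, at 5.93 ± 0.11, to spheroids, at 8.65 ± 0.21 (SD, n = 3 each; difference 2.72 on the log2 scale, SE 0.16, limma adjusted p = 2.92e-07). It was 11.4-fold higher in spheroids than in squamous tissue (log2 difference 3.51, adjusted p = 4.04e-08). The step from squamous tissue to ESMG was 0.79 (interval 0.43 to 1.14, adjusted p = 0.0146), under the 2-fold minimum. Its adjusted p was 0.0508 with pig as a fixed block over the 6 tissue arrays and 0.0240 with pig as a random block over 9 arrays. It ranged from 0.00254 to 0.0611 over the alternatives.

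MUC4 is a large membrane mucin with growth factor-like domains that binds the receptor ERBB2. Its levels were 6.11, 6.48 and 6.54 in ESMG, 5.67, 5.23 and 5.35 in squamous tissue, and 10.41, 10.88 and 10.28 in spheroids. Again the 3 groups stood in the order squamous, ESMG, spheroids without overlap. The rise from ESMG, at 6.37 ± 0.23, to spheroids, at 10.52 ± 0.32, was 17.7-fold (SD, n = 3 each; 4.15 on the log2 scale, SE 0.19, limma adjusted p = 5.56e-08), and spheroids were 34.5-fold above squamous tissue (5.11, SE 0.19, adjusted p = 1.14e-08). ESMG exceeded squamous tissue by 0.96 (interval 0.53 to 1.38, adjusted p = 0.0134), just under the 2-fold minimum. It passed that minimum after cyclic loess (1.01, adjusted p = 0.0115). It also did when either pig 37 array was left out, at 1.09 without the gland one (adjusted p = 0.0147) and 1.08 without the squamous one (adjusted p = 0.0182). Leaving out the pig 37 squamous and pig 40 gland arrays together gave 1.002 (adjusted p = 0.0233). Leaving out either array of pig 39, or the squamous one of pig 40, raised its adjusted p to 0.0536 to 0.0585.

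MUC13 is a membrane mucin best known from the stomach and intestine. It differed among the glands themselves: its level was 7.54 in the ESMG of pig 37, but 4.60 and 4.94 in those of pigs 39 and 40, which were under their lower quartiles. Squamous tissue was at 4.65, 4.66 and 4.66, also under the lower quartile, and spheroids at 9.61, 9.77 and 9.84. The spheroid arrays were above all tissue arrays, including the ESMG of pig 37. From ESMG, at 5.70 ± 1.61, to spheroids, at 9.74 ± 0.12, MUC13 rose 16.5-fold (SD, n = 3 each; 4.04 on the log2 scale, SE 0.56, interval 2.81 to 5.27, limma adjusted p = 0.000147). Because 2 of the 3 gland levels were near the floor, the ESMG mean rests on them and on the 1 array at 7.54, and the fold is not exact. Leaving out the pig 37 glands gave 4.97, and leaving out the pig 39 glands gave 3.50. Against squamous tissue the rise was 33.9-fold (5.08, SE 0.56, adjusted p = 2.61e-05). ESMG and squamous tissue overlapped, with a difference of 1.04 (interval -0.19 to 2.27, adjusted p = 0.365) that was 0.12 without the ESMG array of pig 37.

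That gland array of pig 37 was also the highest of the ESMG group in other respects. The log2 of the summed level of 13 leukocyte markers was 12.54 on it, against 11.36 and 11.75 for pigs 39 and 40, with no leukocyte marker under the lower quartile on any ESMG array. For 12 intestinal columnar markers the sums were 11.20, 10.51 and 10.26 in that order of pigs, and OLFM4, a secreted crypt protein in that list, was at 10.07, 7.13 and 7.71. OLFM4 is itself part of those sums, so they and its level are not separate observations. The median levels of the 12 markers were 5.57, 5.40 and 5.74 in the same order, highest in pig 40. Between 5 and 7 of the 12 intestinal markers were under the lower quartile on ESMG arrays, and CDX2, the intestinal transcription factor, was at 6.26, 6.13 and 5.94. In spheroids, where MUC13 was highest, the leukocyte sum was lower than on any tissue array, at 10.79 to 10.91, and 0 to 2 of the 13 markers were under the lower quartile. The intestinal sum in spheroids was 10.85 to 11.49, with OLFM4 at 8.86 to 10.15. On each spheroid array 4 of the 12 intestinal markers were under the lower quartile. On the squamous array of pig 37 the leukocyte sum was 11.58 and the intestinal sum 9.315, with MUC13 at 4.65. The part of leukocytes or of intestinal-type cells in the MUC13 of the pig 37 glands was not tested.

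**Figure D2:**
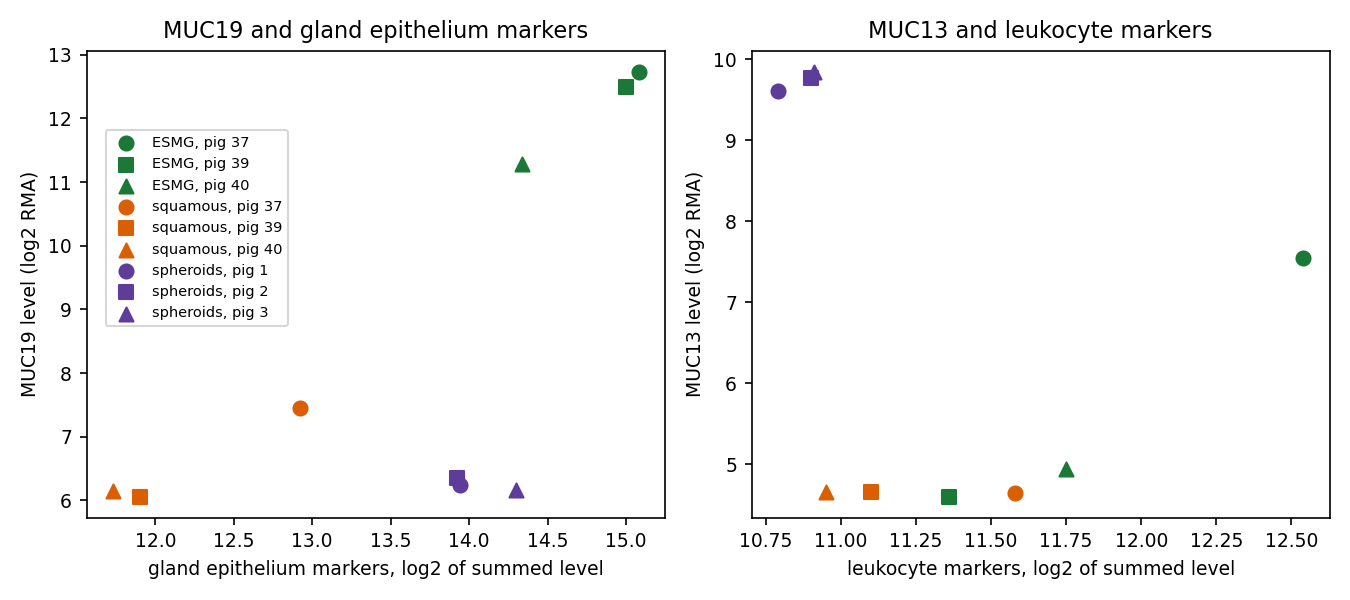
Left, MUC19 level (y axis, log2 RMA) against the log2 of the summed level of 13 gland epithelium markers (x axis); right, MUC13 level against that of 13 leukocyte markers; each point is 1 of the 9 arrays, with colour for the group and shape for the pig. MUC19 is high on the 3 ESMG arrays and at 6.17 to 6.36 in spheroids, whose gland marker sums are 13.92 to 14.30. A sum is set mostly by its brightest markers. The median level of the 13 gland markers is 8.04 to 8.87 in spheroids and 9.78 to 11.50 in ESMG. The ESMG array of pig 37 combines the highest leukocyte sum, 12.54, with the highest tissue level of MUC13, 7.54.

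MUC20 is a membrane mucin that was found, in human cells, to bind the receptor MET. It was at 7.01, 6.83 and 7.14 in ESMG, 6.95, 6.74 and 6.26 in squamous tissue and 8.63, 8.74 and 9.40 in spheroids. The tissues overlapped and lay above the lower quartile on all arrays, and the spheroids were above both. Spheroids, at 8.92 ± 0.42, exceeded ESMG, at 6.99 ± 0.16, by 3.81-fold (SD, n = 3 each; 1.93 on the log2 scale, SE 0.23, limma adjusted p = 4.39e-05) and squamous tissue 4.84-fold (2.28, SE 0.23, adjusted p = 1.19e-05). ESMG minus squamous tissue was 0.35 (interval -0.15 to 0.84, adjusted p = 0.472).

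By arrays alone, the groups did not overlap for 3 mucins in ESMG versus squamous tissue (MUC1, MUC4 and MUC19), all higher in ESMG, against 21.5% of named probe sets (9.79% higher and 11.7% lower). Between spheroids and ESMG none of the 6 overlapped, 5 being higher and MUC19 lower, against 51.3% (30.5% and 20.8%). Between spheroids and squamous tissue the 4 membrane mucins did not overlap, against 50.5% (28.8% higher and 21.8% lower).

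**Figure D3:**
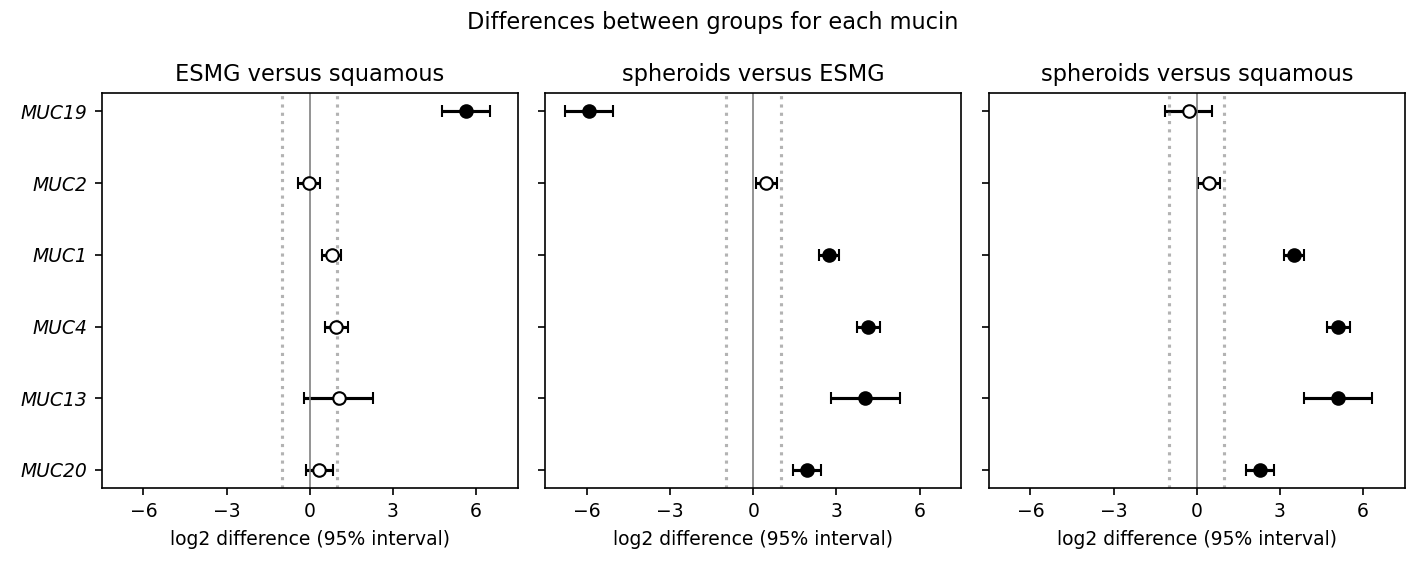
Log2 difference of each mucin in the 3 comparisons (x axis; positive is higher in the group named first), with 95% intervals from limma on 3 arrays per group; filled points were called, open points were not, and dotted lines mark a 2-fold difference. MUC19 changes by 5.62 and -5.92 in the first and second comparisons, and MUC1, MUC4, MUC13 and MUC20 are called at 1.93 to 4.15 in spheroids versus ESMG.

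The rest of the mucin pathway was described through 6 lists, with 1 probe set per gene. Of all genes 3.06% were called in ESMG versus squamous tissue, 2.65% higher and 0.409% lower (median log2 difference -0.06). The share was 16.9% in spheroids versus ESMG, 7.99% higher and 8.91% lower (median 0.09), and 16.7% in spheroids versus squamous tissue, 8.61% higher and 8.05% lower (median 0.03). Equal array medians moved the median over probe sets from 0.09 to 0.20 in spheroids versus ESMG and from 0.03 to 0.16 in spheroids versus squamous tissue.

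Of 25 other mucins and mucin-like proteins 7 were measured, none of them a gel-forming mucin; MUC5AC, MUC5B, MUC6 and MUC7 are not analysed here. None was called between ESMG and squamous tissue (list median 0.03). Against ESMG, spheroids had 1 higher and 2 lower (median -0.08), where 7.99% of all genes were higher and 8.91% lower. PODXL, a sialomucin of apical epithelial and vascular surfaces, rose by 1.41 (limma adjusted p = 0.000325), a call lost with array weights (0.99). CD34, a sialomucin of vessels and progenitor cells, fell by 2.91, and MCAM, an adhesion molecule of vessels and smooth muscle, fell by 1.64. Against squamous tissue the same 3 were called at 1.71, -2.87 and -2.42.

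Enzymes of mucin O-glycosylation were higher in glands than in the lining in 8 of 30 and lower in none (median 0.37), against 2.65% of all genes higher. ST6GALNAC1, which caps the first sugar with sialic acid, was higher by 3.28 (SE 0.26, limma adjusted p = 2.95e-05) and B3GALT5, a galactosyltransferase, by 2.34 (adjusted p = 0.0134). The B3GALT5 call was lost when the gland array (adjusted p = 0.0526) or the squamous array (0.0591) of pig 39 was left out. Its difference was 3.00 with the pig 40 gland array left out, and 3.16 with the pig 37 squamous array left out as well. Of the 30, 4 were higher and 2 lower in spheroids than in ESMG (median -0.15), against 7.99% and 8.91% of all genes. The branch-extending B3GNT3 rose by 1.97 (adjusted p = 2.33e-05) and the galactosyltransferase B4GALT1 by 1.58, while ST6GALNAC1 fell by 1.96 (adjusted p = 9.47e-05) and GALNT7, which adds sugars to partly glycosylated mucin repeats, fell by 2.57 (adjusted p = 3.10e-05). Spheroids versus squamous tissue had 10 higher, led by GALNT10 (2.42) and B3GNT3 (2.29), and 1 lower, GALNT18 (-1.504), with a median of 0.31. Of all genes 8.61% were higher and 8.05% lower in that comparison.

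Genes of mucin folding, packaging and mucus partners were higher in ESMG in 5 of 17 and lower in 1 (median 0.75). Of all genes 2.65% were higher and 0.409% lower. AGR2, a disulfide isomerase needed for mucin folding, was higher by 6.05 (SE 0.57, limma adjusted p = 0.000110) and CLCA1, a mucus-associated protease, by 5.96. These were 6.93 and 6.92 with the pig 37 squamous array left out, and 5.41 and 5.30 with the pig 39 one left out. They were 5.05 and 4.85 with array weights, and 7.13 and 7.10 with the pig 40 gland and pig 37 squamous arrays left out together. The crosslinking enzyme TGM2, a broadly expressed gene, was lower by 1.07 (adjusted p = 0.0392), a call lost in 11 alternatives, among them those without any single tissue array other than the ESMG of pig 40 (adjusted p from 0.0869 to 0.118).

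Between spheroids and ESMG none of the 17 was higher in spheroids and 5 were lower (median -0.50), against 8.91% of all genes lower. CLCA1 fell by 2.78 (adjusted p = 0.00304) and DMBT1, a mucosal scavenger protein, by 2.01 (adjusted p = 0.000162). AGR2 was at 12.04, 12.01 and 11.64 in spheroids and 12.88, 12.64 and 12.16 in ESMG, and was not called (log2 difference -0.66, SE 0.57, adjusted p = 0.391). Every spheroid array was below every ESMG array. The fit shares 1 spread over the 3 groups, and the SD of AGR2 was 1.57 in squamous tissue, 0.37 in ESMG and 0.22 in spheroids. Over the alternatives the difference was -0.86 to -0.50 and its adjusted p 0.0152 to 0.602, so an unchanged AGR2 is not shown. Spheroids exceeded squamous tissue in AGR2 by 5.38 and CLCA1 by 3.18, which became 6.26 and 4.13 with the pig 37 squamous array left out and 4.75 and 2.52 with the pig 39 one left out, and 4.39 and 2.02 with array weights. TGM2 (-1.65) and the oxidase ERO1A (-2.17), which drives disulfide formation, were lower in spheroids than in squamous tissue.

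Of 16 genes of mucin granule release, 2 were higher in ESMG and none lower (median 0.14), against 2.65% of all genes higher. CADPS2, a granule priming protein, was higher by 2.21 (limma adjusted p = 0.000417) and the granule GTPase RAB27A by 1.32 (adjusted p = 0.0183). The RAB27A call was lost when the gland array of pig 37 (adjusted p = 0.0799) or 39 (0.0761), or the squamous array of pig 39 (0.0730), was left out. From ESMG to spheroids 1 was higher and 3 lower (median 0.11), against 7.99% of all genes higher and 8.91% lower. RAB27B fell by 2.66 (adjusted p = 2.72e-06) and SCIN, an actin-severing protein, by 1.65. RAB3D, a GTPase of secretory granules, rose by 1.05, a call lost after quantile normalization (0.96), after cyclic loess (0.89) and without the ESMG array of pig 39 (0.96). Against squamous tissue RAB27A (1.71) and RAB3D (1.16) were higher and RAB27B (-1.87) and SCIN (-1.63) lower.

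Transcription factors of mucous cells were higher in ESMG in 4 of 15 and lower in none (median 0.09), against 2.65% of all genes higher. FOXA1, a factor of glandular epithelia, was higher by 2.13 (limma adjusted p = 0.000596), XBP1, a factor of the secretory apparatus, by 1.95 (adjusted p = 0.000359). Spheroids had 3 lower and none higher than ESMG (median 0.30), against 8.91% of all genes lower and 7.99% higher. SPDEF, which drives mucous cell differentiation, was at 9.37, 9.27 and 8.38 in ESMG and 7.54, 7.48 and 7.27 in spheroids, a fall of 1.58 (adjusted p = 0.000242). Both of its probe sets fell. ELF5, an epithelial ETS factor, fell by 2.51 (adjusted p = 1.52e-06). It was not particular to glands, at 9.81 to 10.49 in ESMG and 10.40 to 10.74 in squamous tissue (log2 difference -0.45, not called). FOXA1 had a difference of 0.31 between spheroids and ESMG (adjusted p = 0.371). Spheroids exceeded squamous tissue in FOXA1 (2.44) and in the progenitor factor SOX9 (2.31) among 3 higher, with ELF5 lower (-2.96). Of all genes 8.61% were higher and 8.05% lower in that comparison.

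Of 17 partners and sheddases of membrane mucins, ERBB4 was the 1 higher in ESMG and none was lower (list median -0.05). Of all genes 2.65% were higher. The ERBB4 difference was 1.21 (limma adjusted p = 0.00554), a call lost without the ESMG array of pig 39 (0.93). Spheroids had 2 higher and 1 lower than ESMG (median 0.51), near the shares of all genes, 7.99% higher and 8.91% lower. MET, the receptor that MUC20 binds, was at 9.73, 10.06 and 9.97 in ESMG and 11.38, 10.81 and 11.63 in spheroids, a rise of 1.36 (SE 0.19, adjusted p = 0.000184). In squamous tissue MET was at 10.38 to 10.46, above every ESMG array, unlike MUC20. Its difference between spheroids and squamous tissue was 0.85, not called. EZR, which links membrane proteins to actin, rose by 1.08 (adjusted p = 0.000589), a call lost with array weights (0.97), after cyclic loess (0.94) and without spheroid array 3 (0.98). ERBB4, a relative of ERBB2, fell by 2.08. Against squamous tissue 3 were higher in spheroids, where 8.61% of all genes were. The sheddase ADAM9 (1.81) and the adhesion receptor ICAM1 (1.29) were largest, and ADAM9 was 1.19 with array weights. ICAM1 lost its call when the squamous array of pig 37 (adjusted p = 0.0509) or 39 (0.0834), or spheroid array 2 (0.0733), was left out.

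**Figure D4:**
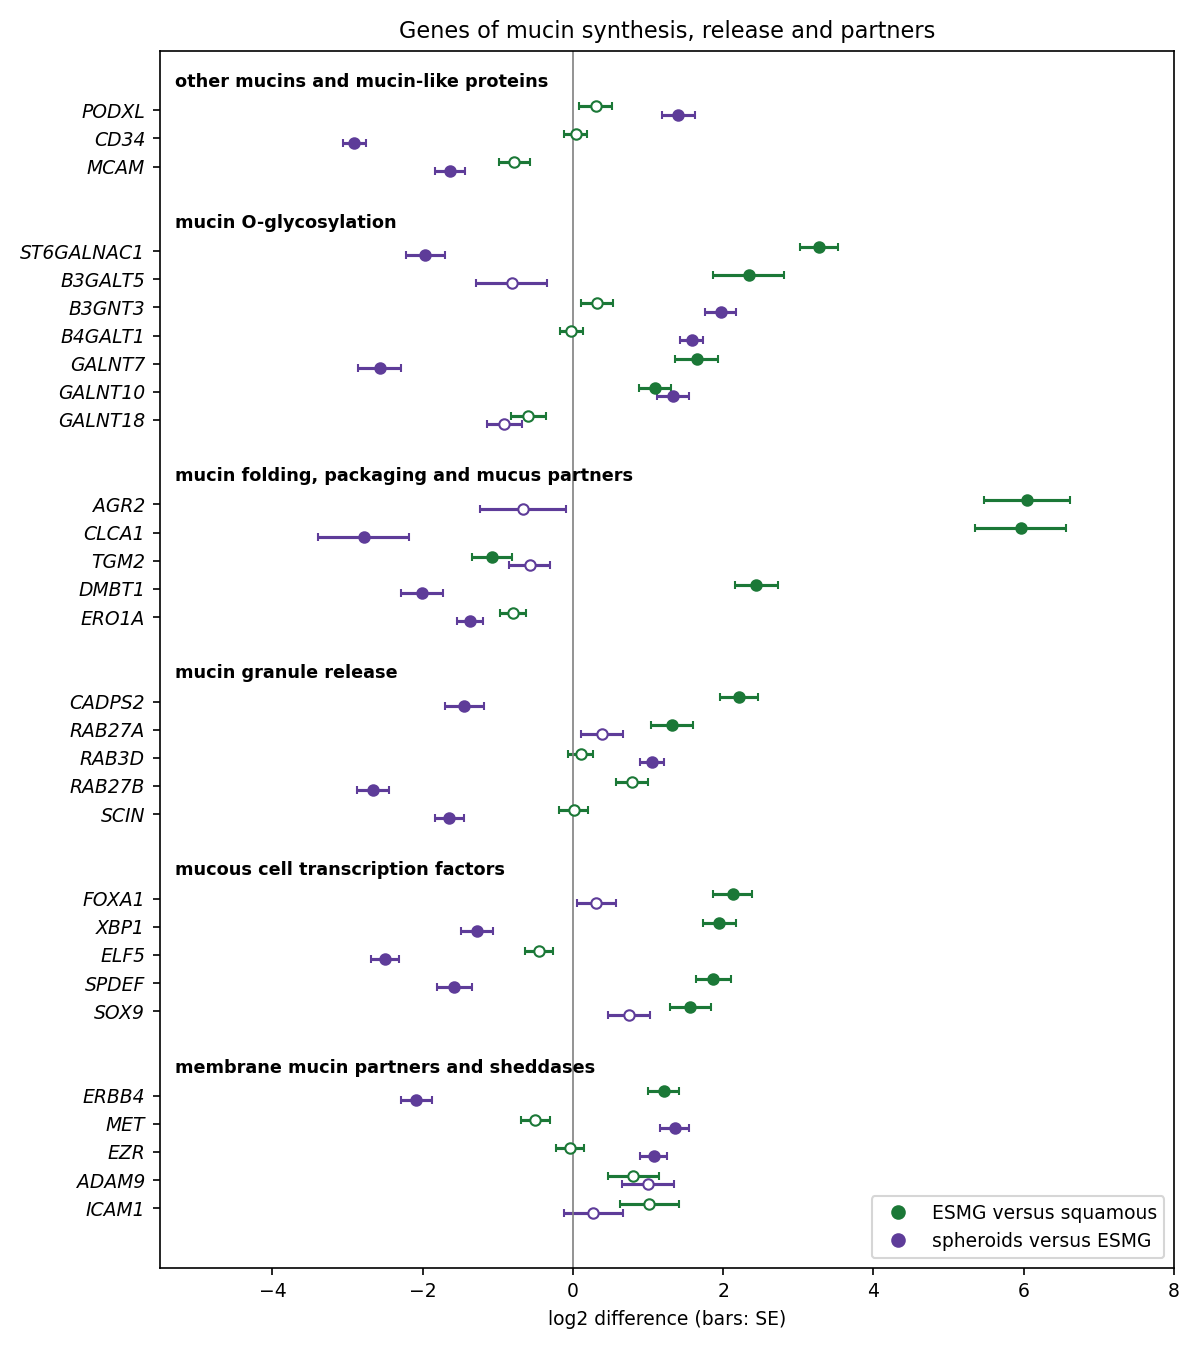
Log2 differences (x axis, bars are SE) of the named genes of the 6 mucin pathway lists in ESMG versus squamous tissue (green) and spheroids versus ESMG (purple), 3 arrays per group; filled points were called and open points were not. ST6GALNAC1, GALNT7, CLCA1, DMBT1, CADPS2, XBP1, SPDEF and ERBB4 are higher in ESMG than in squamous tissue and lower in spheroids than in ESMG, and AGR2 and FOXA1 are called in the first comparison and not in the second; whether a gene's 2 differences are unequal was not tested.

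Markers of other cell types moved beside the mucins in spheroids. In spheroids versus ESMG 11 of 11 fibroblast and matrix genes, 6 of 7 smooth muscle, 6 of 7 endothelial and 7 of 13 leukocyte markers were lower and none was higher, against 8.91% of all genes lower. The log2 of the summed fibroblast level was 15.28 to 15.55 in ESMG, 15.30 to 15.52 in squamous tissue and 11.34 to 12.10 in spheroids. COL1A2, a fibroblast collagen, fell by 4.67 and PTPRC, the common leukocyte antigen, by 2.95. The endothelial PECAM1 fell by 2.42. Among leukocyte markers not called in spheroids versus ESMG, AIF1 differed by 0.82 (limma adjusted p = 0.0322) and LCP1 by 0.015. Against squamous tissue 2 of the 13 leukocyte markers were called higher in spheroids, AIF1 (1.27) and LCP1 (1.26), and 4 lower. Of all genes 8.61% were higher and 8.05% lower in that comparison. The LCP1 call was lost with array weights (0.71). KRT5, a basal squamous keratin, was higher in spheroids than in ESMG by 0.90 (SE 0.18, adjusted p = 0.00186), under the 2-fold minimum. KRT5 was called in 4 alternatives: with equal array medians (1.02), with array weights (1.11), and with the pig 40 gland array left out, alone or together with the pig 37 squamous array (1.04 in both). The rises of MUC1, MUC4, MUC13 and MUC20 were 1.93 to 4.15, and KRT5, KRT8, KRT18 and KRT19 differed by 0.24 to 1.87. Other members of the lists of these keratins fell. Of 13 gland epithelium markers 7 were lower and 1 higher (median -2.13). Of 6 squamous epithelium markers 2 were lower and none higher (median -0.51). The part of cell composition in the mucin rises was not tested.

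In the squamous epithelium list 2 of 6 were lower in spheroids than in ESMG, against 8.91% of all genes. They were CRNN at -4.04 and A2ML1 at -3.98, both proteins of the upper squamous layers. Intestinal columnar markers gave 1 of 12 higher, near the share of all genes, 7.99%. It was the chloride channel CFTR at 1.12, a call lost with array weights (0.70) and without spheroid array 3 (0.81). CDX2 was at 6.39, 6.56 and 6.27 in spheroids and was not called against ESMG (0.30, adjusted p = 0.126).

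The genes whose pattern over the 9 arrays was most like that of each mucin were found by Pearson correlation, as a description; the arrays fall into 3 groups of 3, so a high value mainly says that the group levels have the same shape. MUC19 was closest to LMAN1L (r = 0.992), SLC16A10 (0.988) and KNG1 (0.986). MUC1 was closest to GLMP (0.999), the tight junction receptor LSR (0.997) and the ERK phosphatase DUSP4 (0.995). The nearest pattern to MUC4 was that of MUC1 (0.994), followed by LSR (0.993) and the collagenase MMP13 (0.989). MUC13 was closest to the elastase MMP12 (0.984), SLN (0.982) and P2RX5 (0.959), and MUC20 to the collagenase MMP1 (0.989), PLLP (0.988) and DTX4 (0.982). For MUC2, whose range over all arrays was only 1.01, they were TMIGD1 (0.967), NEK5 (0.938) and CCL3L1 (0.935).

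In the RefSeq gene order of the pig reference assembly MUC4 and MUC20 are neighbours, with TNK2 before MUC4 and RUBCN after MUC20. In spheroids versus ESMG these flanking genes differed by 0.87 (TNK2) and -0.63 (RUBCN), neither called, against 4.15 for MUC4 and 1.93 for MUC20. THBS3 and TRIM46, on either side of MUC1, differed by -0.998 and 0.09, and ITGB5, next to MUC13, by 0.98; none was called, although THBS3 was called in 4 alternatives (-1.14 to -1.02), ITGB5 in 6 (1.03 to 1.09) and TNK2 with array weights (1.003). LRRK2 and CNTN1, on either side of MUC19, differed by -0.43 and -0.06, against -5.92 for MUC19. MUC2 lies between MUC6 and MUC5AC, which are not analysed here.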

How the data were processed

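Total RNA of the 9 samples was measured on porcine gene arrays. The authors deposited values on a log2 scale, made by gene-level RMA with Expression Console per the labels. The submitters' processing notes also list Transcriptome Analysis Console 3.0. The genome build was not given in the sources used. RMA equalises array distributions, so global differences in RNA amount are lost. All 9 columns matched a sample, and 0 were left over.

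Probe sets with exactly 1 symbol in the platform annotation (13157; 523 had several and 13878 none) were tested one by one, which leaves out array controls among the unnamed; symbols were updated by gene number with the RefSeq table of Sscrofa11.1 (12841 matched, 7 changed). A group-means model was fitted with limma 3.58.1 (lmFit, eBayes; R 4.3.3, 6 residual degrees of freedom). The fit was tested on simulated data. For lists and named genes, the probe set with the highest mean stood for a gene. ERBB4, TGM2, CDX2, CNTN1 and SPDEF had 2 probe sets each, and the values given are those of the brighter one. Summed levels are sums of unlogged levels. The series describes the 3 arrays of each group as biological replicates.

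ESMG and squamous samples share pigs 37, 39 and 40 per their titles, so pig was run as a block. Their deviations from the group means correlated at 0.42, -0.15 and -0.17 within pigs.

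Named genes were the 6 mucins, the 3 genes most like each (among genes with a range over arrays of at least 0.5 of its own), the 2 largest called rises and falls of each list and comparison, and 9 defining markers, of which MYH11 had no probe set with 1 symbol; marker-list genes are mostly given as sums. The genes flanking the mucins were added after seeing the data. Members, lists and rules were chosen with earlier results of these data known. Alternatives were other normalizations, array weights, filters, feature sets, the pig block, a trended robust fit and leaving out arrays. Every result with array weights leans on spheroid array 1 and the squamous array of pig 37, which had the largest weights. Plots used matplotlib 3.10.9.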

Additional observations from a re-analysis of the deposited data

How the results depend on the processing

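All 10 called mucin differences kept their direction and their call in every alternative run. With pig as a fixed block over the 6 tissue arrays, 430 probe sets were called between ESMG and squamous tissue, against 406 without the block, and the block, fixed or random, changed no mucin call. In ESMG versus squamous tissue, 2 mucins instead of 1 were called after cyclic loess and without the ESMG array of pig 40 and the squamous array of pig 37 together, the added one being MUC4; leaving out 1 array at a time gave 1 to 2. The total count was 297 to 614 over single arrays left out, the highest with the pig 40 gland array left out, and 655 when the pig 37 squamous array was left out as well (the latter setting chosen after seeing the data). Over all probe sets 4153 were called in spheroids versus ESMG and 4129 in spheroids versus squamous tissue, against 2229 and 2196, by construction of a longer list. Between spheroids and ESMG 1068 were higher and 1161 lower, but 1352 and 994 with equal array medians and 829 and 1327 after cyclic loess; in spheroids versus squamous tissue 1145 and 1051 became 1479 and 886 with equal medians.

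Sign changes were limited to differences near 0 that were not called, and their cause was not tested. MUC2 in ESMG versus squamous tissue was 0.014 after quantile normalization, 0.042 after cyclic loess, 0.0018 with array weights and -0.20 to 0.15 over single arrays left out. MUC19 in spheroids versus squamous tissue was -0.54 to 0.15 over single arrays left out, and 0.15 without the ESMG array of pig 40 and the squamous array of pig 37. For spheroids versus ESMG, KRT18 was -0.098 with array weights, -0.074 without those same 2 arrays and -0.074 to 0.49 over single arrays left out. CNTN1 was 0.088 after quantile normalization, 0.049 with equal medians and -0.22 to 0.024 over single arrays left out. TRIM46 was -0.0055 to 0.16 over single arrays left out. MUC2 was not tested with the dimmest probe sets left out. Levels of MUC2 and MUC13 in both tissues (for MUC13 not in the glands of pig 37), of MUC1 and MUC4 in squamous tissue and of PHEROC in spheroids are near the RMA floor on most or all arrays, so their folds may be compressed.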

Other observations

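Some groups of 3 arrays held nearly the same mucin value. MUC13 had an SD of 0.0073 over the 3 squamous arrays, a spread that 0.167% of named probe sets matched or undercut, and MUC2 had one of 0.0074 over the 3 ESMG arrays (0.0836%). At the other end, the SD of MUC13 over the ESMG arrays, 1.61, was larger than that of nearly all other named probe sets (99.95% had an equal or smaller one), and MUC19 stood at 98.7% in ESMG and 99.4% in squamous tissue.

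Within the glands, MUC1, MUC4 and MUC20 had their highest gland level in pig 40, where MUC19 had its lowest. Their leads over the next gland array were small: 6.05 against 5.90 for MUC1, 6.54 against 6.48 for MUC4 and 7.14 against 7.01 for MUC20. MUC19 was at 11.29 in pig 40, against 12.49 and 12.73. The membrane mucin MUC13 was highest in pig 37, at 7.54. This ranking was picked after seeing the data, and an opposite behaviour of MUC19 and the membrane mucins within glands was not tested.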
